A study of Macaca fuscata with 12 samples.

Results

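Potassium channel genes were examined on 12 Affymetrix rhesus macaque arrays of cerebral cortex from Japanese macaques (*Macaca fuscata*). Members were all probe sets to which the array's gene table gives a single symbol that begins with KCN, or the symbol of a pacemaker channel (HCN). The rule found 113 probe sets for 75 genes among 52766 probe sets, of which 24956 had 1 symbol. They comprised 42 probe sets of 28 voltage-gated genes, 1 of the pacemaker channel HCN3, 21 of 13 inward rectifier genes, 14 of 12 two-pore genes, 8 of 6 calcium- or sodium-activated genes and 27 of 15 accessory subunit genes. The rule reads gene symbols only.

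All tissue came from the left hemisphere. In each of 2 regions there were 3 arrays of animals trained in tool use and 3 arrays of control animals without that training. The region called SII here was the cortex around the lateral sulcus, which includes the secondary somatosensory cortex, and the region called IPS was the cortex around the intraparietal sulcus. The SII control animals were a female of 4 years 6 months and males of 5 years 4 months and 5 years 10 months. The SII trained animals were males of 5 years 7 months and 5 years 1 month and a female of 3 years 10 months. The IPS arrays came from males, with control animals of 5 years 4 months, 5 years 10 months and 3 years 9 months and trained animals of 5 years 7 months, 6 years and 5 years 1 month. Tissue from both regions was taken from 4 of the 8 animals (2 control, 2 trained). Each array of a group came from a different animal, and the labels name the arrays of the regions differently, so region and a possible hybridisation batch cannot be told apart. In tissue of mixed cells, fewer cells of a type and less RNA per cell cannot be told apart.

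Potassium channels let potassium leave the cell and so pull the membrane back towards rest. Voltage-gated channels (Kv families) open on depolarisation and set the shape, timing and repetition of action potentials. Inward rectifiers (Kir) hold the resting potential, answer to G proteins or metabolic state, and in astrocytes take up potassium released by active neurons. The two-pore channels carry background leak currents, and calcium-activated channels produce the hyperpolarisation that follows a spike. Accessory subunits change the gating and trafficking of the pores they bind.

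Each value is a log2 distance from the probe set's own median over the 12 arrays, so 0 is the middle array and 1 is a doubling of signal. They give no level, and no gene can be placed above another. From the spacing of the stored numbers, 9 member probe sets had a high signal, 54 a middle signal, 37 a low signal and 13 had at least 2 arrays at the lowest value the array could give, here called the floor. At the floor only an upper limit is known. Arrays of a group spread with a median SD of 0.26 in high-signal members, 0.37 in middle-signal, 0.89 in low-signal and 0.999 in floor members, against 0.23, 0.37, 0.78 and 1.03 over all probe sets of these classes. Among the members were 37 textbook cortical channel genes. The labelled tissue could not be checked by marker levels, since these are removed: no neuron or astrocyte marker had a value at the floor, but neither had the muscle genes ACTN3 and CKM.

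**Figure D1:**
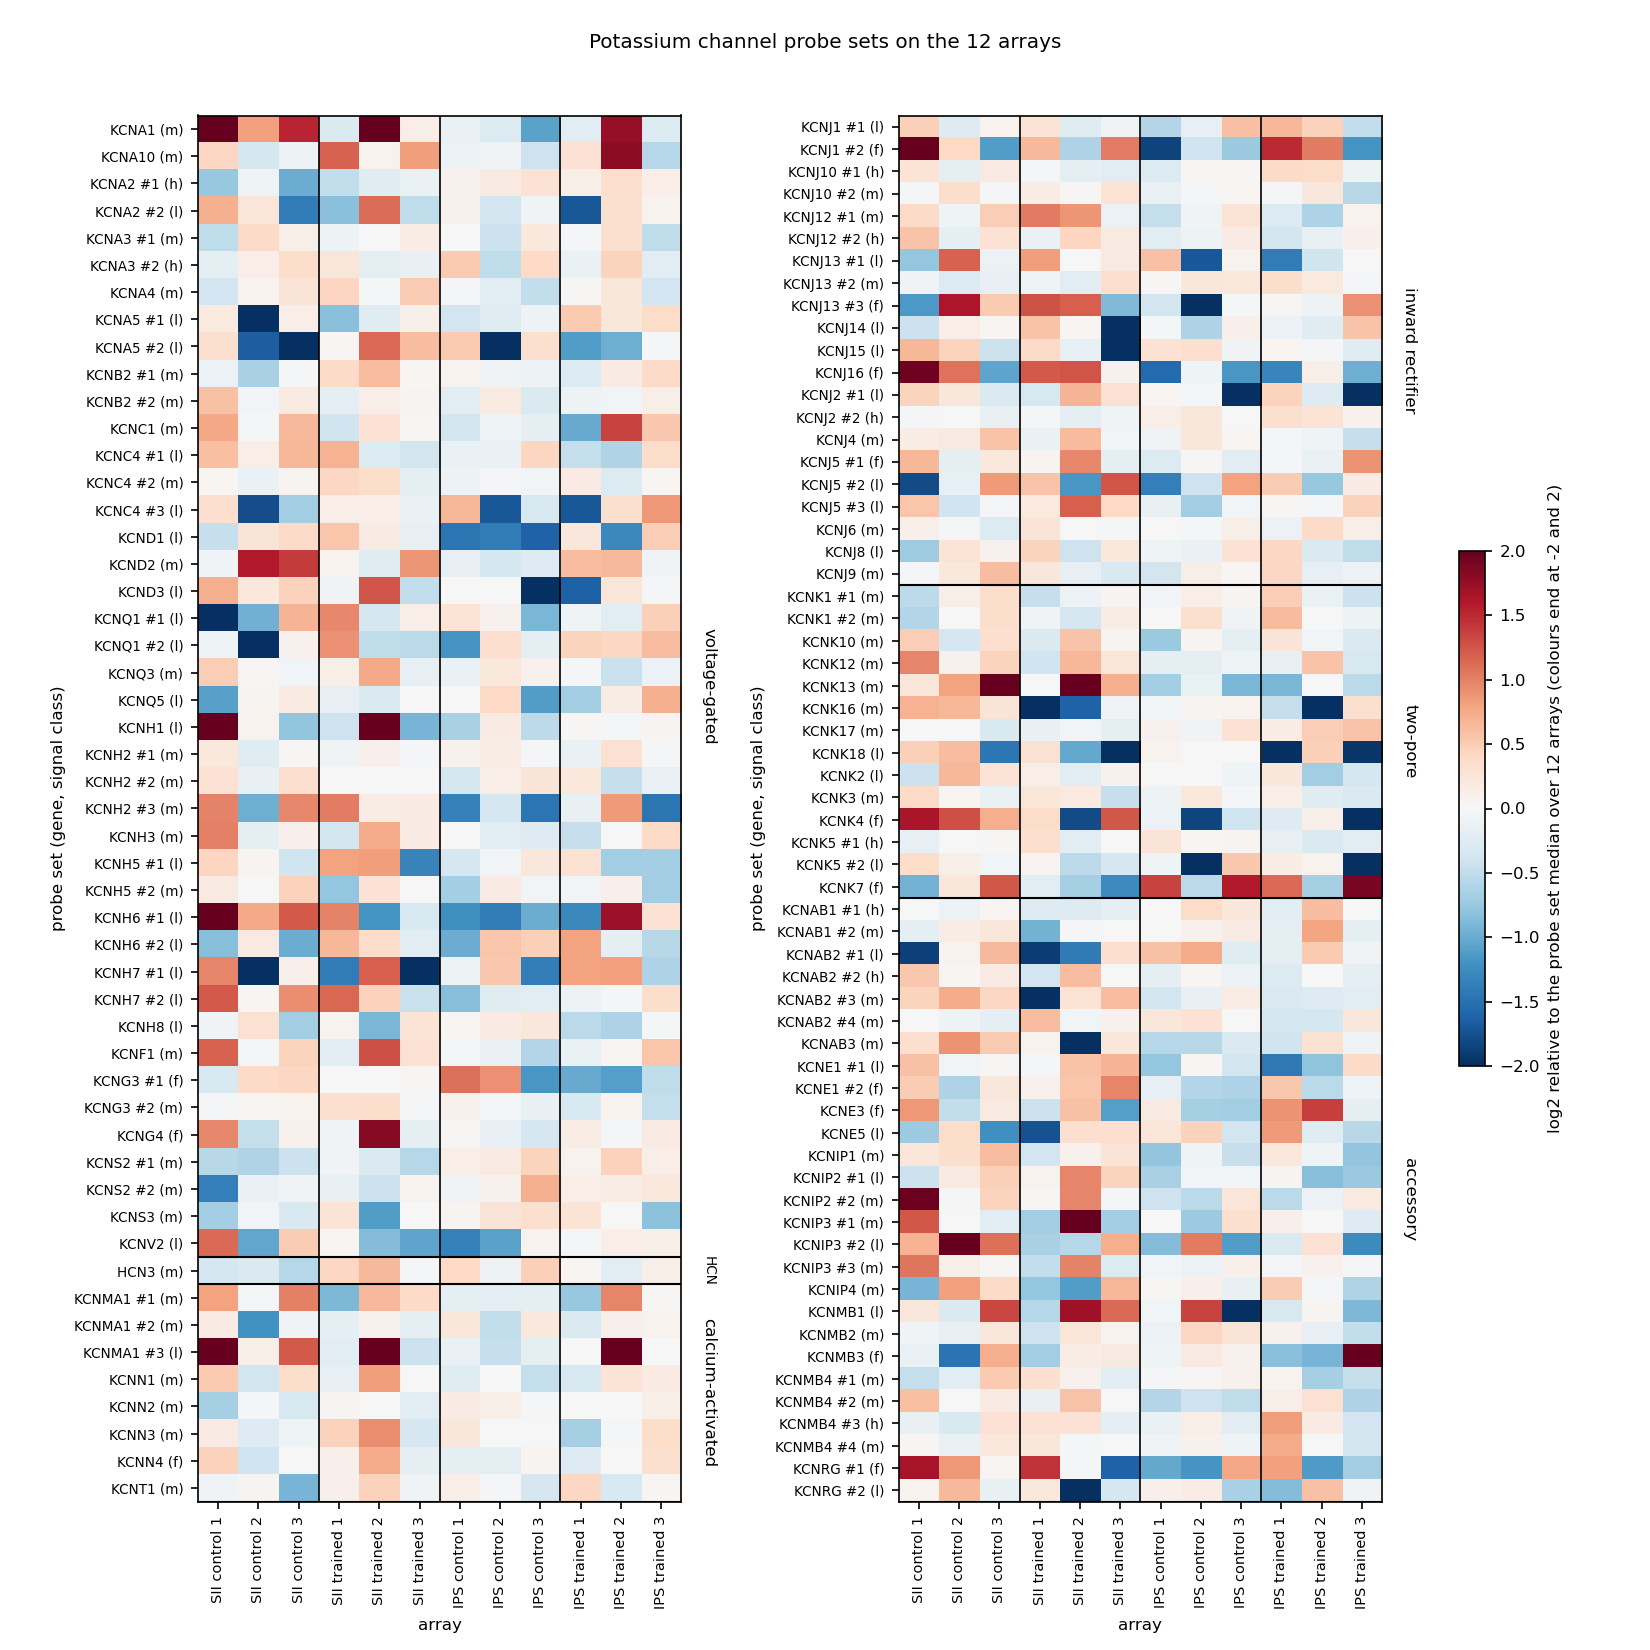
Log2 value of every member probe set (rows, by family) on each of the 12 arrays (columns, by group), relative to the probe set's median, with colours ending at 2 in either direction. The letter after a name is the signal class (h high, m middle, l low, f floor). Strong colours are frequent in low and floor rows, and KCNA1 and KCNH1 stand out in the columns of SII control 1 and SII trained 2.

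3 arrays stood apart in ways the groups do not explain. The 18 hybridisation control probe sets lay between −0.14 and 0.08 on 9 arrays but averaged 0.44 on IPS trained 3, 0.47 on SII control 1 and 0.49 on SII trained 2. SII control 1 and SII trained 2 are also the arrays of the female animals, so sex and this difference cannot be told apart. They were the 2 highest of the 12 arrays for 22 of 113 member probe sets (19.5%, against 9.42% of all probe sets) and the 2 lowest for 3 (2.65%, against 7.30%), a count chosen after its values were seen. Among those 22 were KCNA1, KCNF1, KCNH1, KCNH3, KCNQ3, KCNN1, KCNK12, KCNIP2 and both middle-signal probe sets of KCNIP3. Between the 3′ and 5′ probe sets of actin, a measure of RNA integrity, the difference was −1.87, −1.71 and 0.25 in SII controls and −1.54, 0.63 and 1.17 in SII trained animals, against 0.02 to 0.23 in IPS controls and −0.79 to 1.37 in IPS trained animals. As each probe set is centred on its own median, the difference compares arrays with each other and is no 3′ to 5′ ratio. For GAPDH it was −0.57 to −0.22 in SII controls and −0.24 to 0.72 in SII trained animals. In IPS it was −0.03 to 0.33 in controls and −0.28 to 1.01 in trained animals. IPS trained 3 had the highest value of all arrays for both actin and GAPDH. The part of these differences in the training and region values was not tested. SII control 1 and SII trained 2 both belong to SII, one to each training group. For some of the results that rest on them, values without them are also given below. For KCNF1, KCNH1, KCNQ3, KCNN1 and KCNIP3 no value without both arrays is given.

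Neither region nor training gave a potassium channel difference that passed the test. In limma, fitted over all probe sets with the animal as a correlated block, 0 of 113 members and 0 of 52766 probe sets passed a false discovery rate of 5% in any of 5 comparisons (0% called). The smallest adjusted p of a member was 0.385, for KCNS2 between regions, and in the training comparisons none was below 0.9999. At an unadjusted limma p under 0.05 there were 4 members for training in SII (3.54%, against 3.87% of all probe sets), namely HCN3, KCNB2, KCNK16 and KCNAB3, 1 for training in IPS, KCND1 (0.885%, against 3.27%), 2 for the difference between these training changes, HCN3 and KCNH6 (1.77%, against 3.68%), 2 for their average, KCND1 and KCNK16 (1.77%, against 3.48%), and 15 between regions (13.3%, against 9.26%). The shares for training were at or below the background. Those between regions split into 3 higher in IPS (2.65%, against 4.08%) and 12 lower in IPS (10.6%, against 5.18%). The 3 higher were KCNS2, KCNA2 and KCNK17, and the 12 lower were KCNA1, KCND1, KCNH2, KCNH7, KCNJ12, KCNJ16, KCNK4, KCNK13, KCNE1, KCNIP1, KCNIP2 and KCNMB4. The median standard error over all probe sets was 0.44 for training within a region and 0.31 between regions, so the arrays resolve only sizeable differences.

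**Figure D2:**
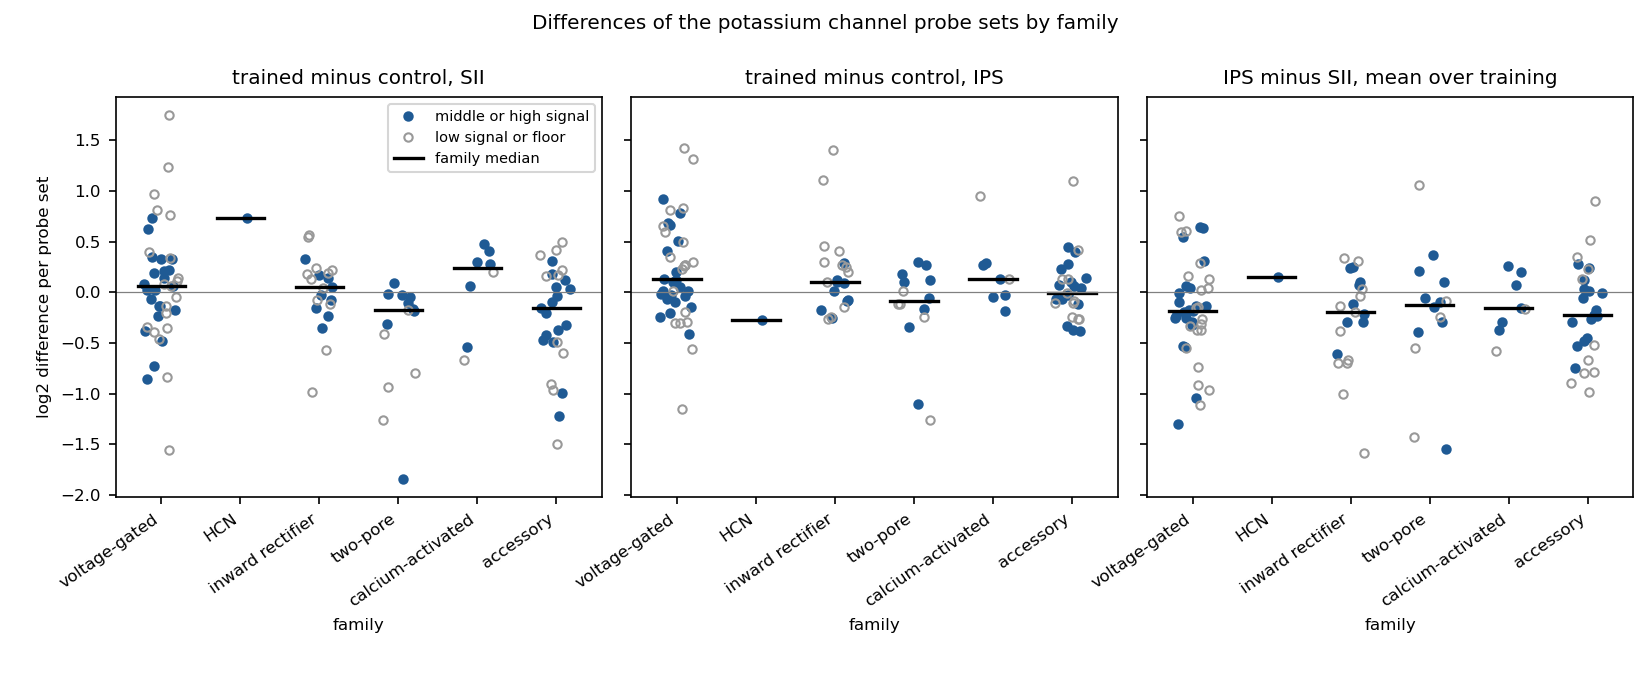
Log2 difference of each member probe set (points) by family for training in SII, training in IPS and IPS minus SII, with the family median as a bar; filled points have middle or high signal and open points low signal or floor. Points of every family lie on both sides of 0 except for HCN3, which is a single probe set, and the region medians of the 5 larger families all lie below 0.

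Between regions, 74 of 113 member probe sets had a lower mean in IPS than in SII (65.5%, against 50.8% of all probe sets), with a median of −0.17 against −0.01 over all. Among middle and high signals it was 41 of 63, against 44.4% of all such probe sets. Without the arrays of the female animals the share was lower: with males only it was 58.4% (against 47.4% of all probe sets) and the median −0.08, and with sex as a covariate the median was −0.08. The median over all probe sets was 0.02 in both settings. The medians of the families were −0.18 for voltage-gated, −0.19 for inward rectifier, −0.12 for two-pore, −0.16 for calcium-activated and −0.23 for accessory probe sets. Groups of 6 arrays did not overlap for 3 members higher in IPS (2.65%, against 0.639%) and 1 lower (0.885%, against 0.345%). In the 4 animals with both regions, 8 members were higher in IPS in 4 of 4 (7.08%, against 9.07%) and 11 were lower in 4 of 4 (9.73%, against 7.06%).

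For training the members lay on both sides of 0. In SII 55 had a higher and 58 a lower mean in trained animals (median −0.03, against 0.06 over all probe sets, of which 56.4% were higher). The share lower in SII was 51.3%, against 43.6% of all. It was 61.1% (against 44.7%) with males only, 61.1% (against 45.1%) without the 3 arrays of raised hybridisation controls and 59.3% (against 50.4%) with quantile normalization. In IPS 65 were higher and 48 lower (0.07, against 0.01 and 51.7% higher). Groups did not overlap for 5 members in SII (4.42%, against 7.08%) and 9 in IPS (7.96%, against 9.49%). Of these, 2 were higher in trained animals in SII (4.70% of all probe sets were) and 3 lower (2.38%), and 7 were higher in IPS (5.77%) and 2 lower (3.72%). No member had groups that did not overlap in both regions, against 0.426% of all probe sets in the same direction and 0.309% in opposite directions. As each array was left out, training in IPS gave −1.87 to −0.74 for KCNG3 at its floor probe set MmugDNA.17755.1.S1_at. The mean over the KCNG3 probe sets was −0.67 ± 0.29. KCNH8 gave −0.77 to −0.44 in IPS, and KCNK5 −0.37 to −0.27 at its high-signal probe set. For KCNA10 the average training change was 0.38 to 0.96.

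Among voltage-gated probe sets, 28 of 42 had a lower mean in IPS (66.7%, against 50.8% of all probe sets). The 2 with the smallest unadjusted limma p between regions, those of KCNS2 and KCNA2, were higher in IPS. KCNS2 encodes a modifier subunit that forms no channel alone and alters Kv2 channels. Its probe set MmugDNA.14274.1.S1_at, of middle signal, read −0.56, −0.60 and −0.42 in SII controls and −0.06, −0.30 and −0.57 in SII trained animals. In IPS it read 0.13, 0.18 and 0.45 in controls and 0.06, 0.46 and 0.13 in trained animals. Every IPS array lay above every SII array, and IPS was higher in 4 of 4 animals with both regions. The difference of 0.65 ± 0.15 (SE, 6 arrays a region) had an adjusted limma p of 0.385. The second KCNS2 probe set, MmugDNA.40202.1.S1_at, gave 0.54 ± 0.25 and was also higher in IPS in 4 of 4 animals, and over the 12 arrays the probe sets correlated at r = 0.64. With male animals only the first probe set gave 0.65.

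KCNA2 encodes a Kv1 subunit of axons and their terminals. Its high-signal probe set MmugDNA.36075.1.S1_at read −0.75, −0.09 and −0.99 in SII controls and −0.50, −0.24 and −0.13 in SII trained animals, against 0.09, 0.18 and 0.29 in IPS controls and 0.12, 0.34 and 0.14 in IPS trained animals. The regions did not overlap, though SII control 2 at −0.09 and IPS control 1 at 0.09 came within 0.2. IPS was higher by 0.64 ± 0.18 and in 4 of 4 animals (limma adjusted p = 0.421). The second probe set, MmuSTS.774.1.S1_at, of low signal, gave −0.15 ± 0.49, and the mean over both gave 0.24. With male animals only the high-signal probe set gave 0.62. For training, KCNS2 gave 0.22 ± 0.22 in SII and −0.04 ± 0.22 in IPS, and KCNA2 gave 0.32 ± 0.26 and 0.02 ± 0.26.

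**Figure D3:**
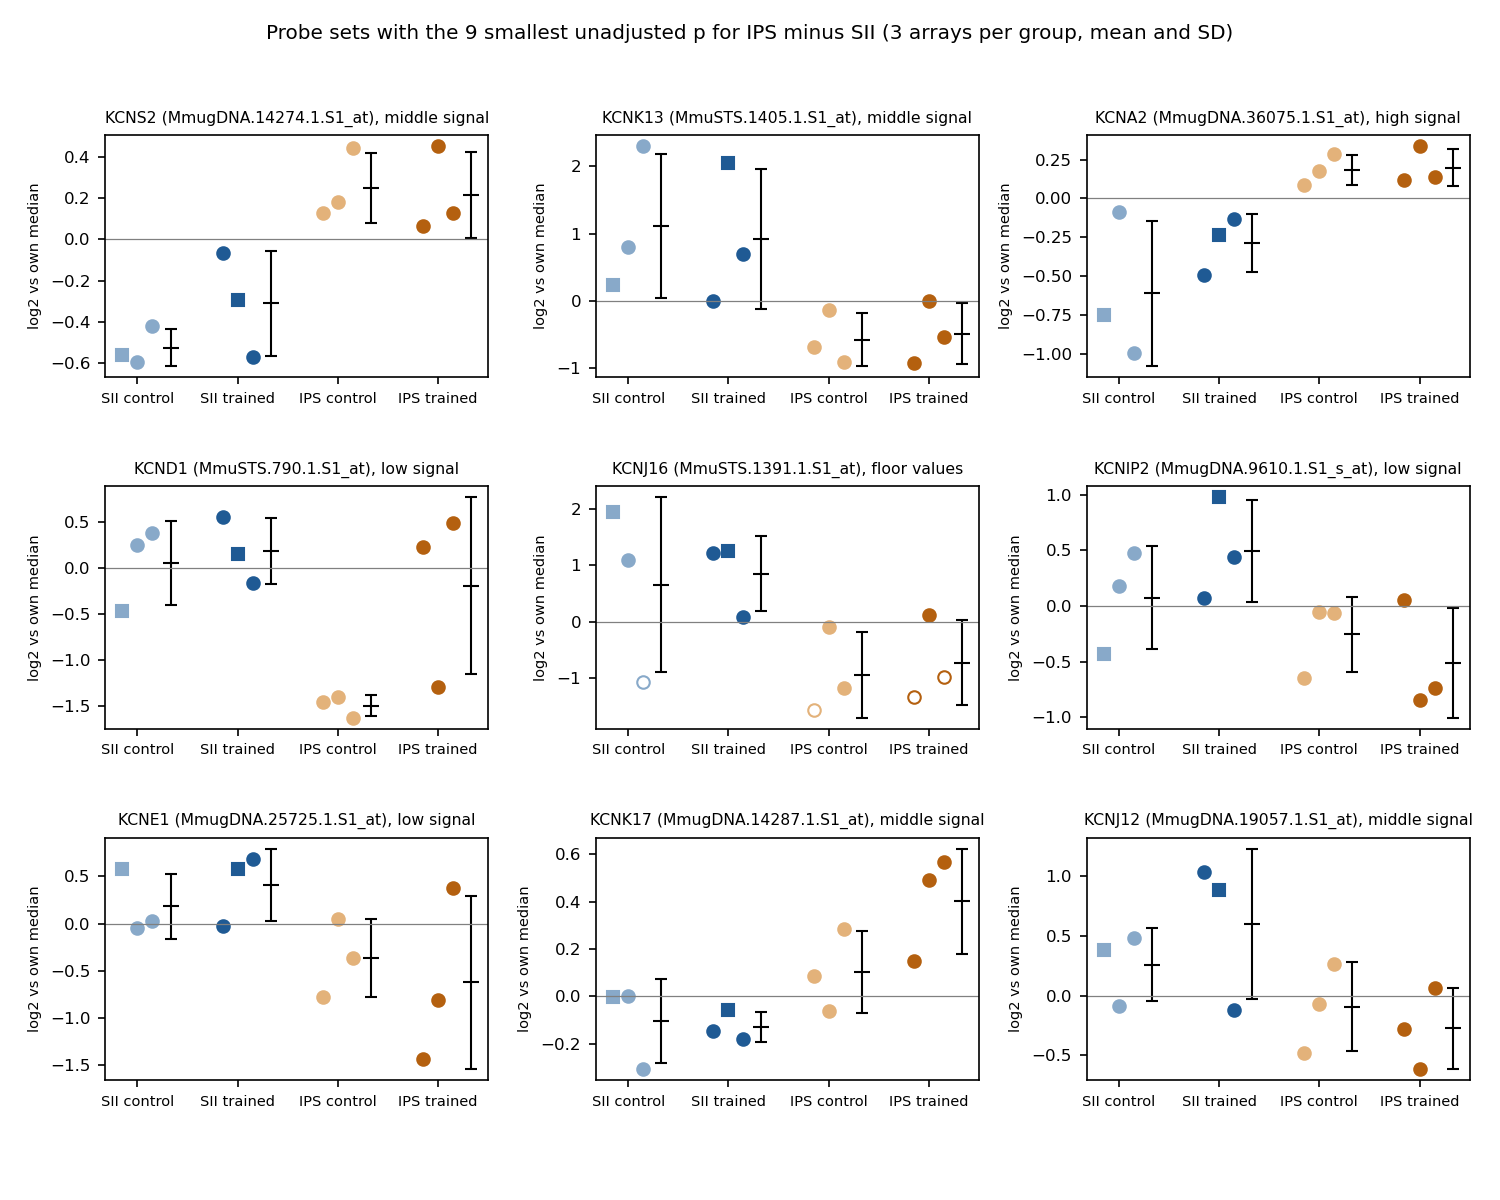
Log2 value on each array for the member probe sets with the smallest unadjusted p between regions, by group; the black bar is the group mean ± SD (n = 3), squares are the 2 arrays of female animals and open marks are values at the floor. For KCNS2 and KCNA2 all 6 IPS arrays lie above all 6 SII arrays, and for KCNK13 all 6 lie below.

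KCNA1 and KCNA4 lay in the other direction. KCNA1, the axonal partner of KCNA2, was the widest-ranging voltage-gated gene of middle or high signal, with 2.82, 0.82 and 1.52 in SII controls, −0.29, 2.67 and 0.13 in SII trained animals, −0.13, −0.27 and −1.06 in IPS controls and −0.21, 1.74 and −0.27 in IPS trained animals. The highest values were those of the female animals' arrays, and the regions overlapped. IPS was lower by 1.29 ± 0.58 on the log2 scale (limma adjusted p = 0.538), by 0.86 without SII trained 2 and by 0.58 with male animals only. KCNA4, an A-type Kv1 channel that inactivates quickly, was lower in IPS in 4 of 4 animals with a difference of −0.29 ± 0.19. The 2 probe sets of KCNA3 gave −0.09 and 0.04, and those of KCNA5, of low signal, 0.60 ± 0.42 and −0.31 ± 0.58.

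The 3 probe sets of Kv4 genes, whose A-type currents delay firing and damp dendritic signals, were all lower in IPS (median −0.92) and all had a higher mean in trained than in control animals in IPS (median 0.67). Of all probe sets, 50.8% were lower in IPS and 51.7% had a higher mean in trained animals in IPS. KCND1 (MmuSTS.790.1.S1_at, low signal) read −1.46, −1.40 and −1.62 in IPS controls and 0.23, −1.29 and 0.49 in IPS trained animals, against −0.46, 0.26 and 0.38 in SII controls and 0.56, 0.16 and −0.16 in SII trained animals. The IPS controls lay closely together below all other arrays, with IPS trained 2 next to them. Training gave 1.31 ± 0.44 in IPS, 0.94 without the 3 arrays of raised hybridisation controls, and 0.11 ± 0.44 in SII, and the difference between these changes was 1.20 ± 0.62. Between regions KCND1 gave −0.96 ± 0.31 (limma adjusted p = 0.467). KCND2, the main Kv4 gene of pyramidal cell dendrites, had middle signal and read −0.07, 1.59 and 1.39 in SII controls, 0.07, −0.25 and 0.88 in SII trained animals, −0.16, −0.35 and −0.26 in IPS controls and 0.62, 0.65 and −0.07 in IPS trained animals. The IPS groups did not overlap and the SII groups did. Its training changes were −0.73 ± 0.45 in SII and 0.67 ± 0.45 in IPS, and they differed by 1.40 ± 0.63. The SII change was −0.42 without SII control 2 and −1.25 without SII control 1, and the difference 1.08 and 1.90. Without the 3 arrays of raised hybridisation controls the difference was 1.95 (limma adjusted p = 0.328). KCND3 (low signal) gave −0.20 ± 0.69 and 0.23 ± 0.69.

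KCNB2, a Kv2 delayed rectifier, gave an answer that depended on the probe set. MmugDNA.28479.1.S1_at read −0.12, −0.65 and −0.05 in SII controls and 0.39, 0.61 and 0.05 in SII trained animals, which did not overlap, and gave 0.62 ± 0.27. In IPS it gave 0.13 ± 0.27. The second probe set, MmuSTS.782.1.S1_at, also of middle signal, gave −0.24 ± 0.24 in SII and 0.10 ± 0.24 in IPS, and the probe sets correlated at r = 0.03. The mean over both gave 0.19 in SII.

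KCNC1, a Kv3 channel that lets interneurons fire fast, gave −0.48 ± 0.51 for training in SII and 0.51 ± 0.51 in IPS. Kv7 genes carry the M-current that restrains repeated firing. All 4 of their probe sets had a higher mean in trained animals in SII, as did 56.4% of all probe sets, with a median of 0.56 for the 4. That median came from KCNQ1, a gene better known from heart, at 1.24 ± 0.72 and 0.97 ± 0.77 with low signal, whereas the cortical KCNQ3 and KCNQ5 gave 0.08 ± 0.28 and 0.15 ± 0.49. The first KCNQ1 value was 0.41 without SII control 1 and 2.06 without SII control 3. In IPS, KCNQ3 gave −0.25 ± 0.28 and KCNQ5 0.30 ± 0.49.

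The ether-a-go-go genes (KCNH), which include erg channels known from cardiac repolarisation, had 12 probe sets with 4 higher and 8 lower in IPS (median −0.24). Of all probe sets, 50.8% were lower in IPS. KCNH2 had 3 probe sets of middle signal, and MmugDNA.43430.1.S1_at gave −1.04 ± 0.47 between regions (limma adjusted p = 0.538) while the others gave 0.06 ± 0.15 and −0.13 ± 0.18. KCNH7, the erg gene of brain, also disagreed with itself, with −0.73 ± 0.30 at MmuSTS.2928.1.S1_at (limma adjusted p = 0.509) and 0.76 ± 0.75 at MmugDNA.8341.1.S1_at, so the mean over its probe sets was 0.03.

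KCNH6 gave the largest difference between the training changes of the regions. MmugDNA.9796.1.S1_at, of low signal, read 2.22, 0.75 and 1.23 in SII controls, 0.99, −1.20 and −0.30 in SII trained animals, −1.23, −1.40 and −0.996 in IPS controls and −1.29, 1.71 and 0.30 in IPS trained animals. Control animals were high in SII and low in IPS, and trained animals overlapped with controls in each region. The training changes of −1.55 ± 0.75 and 1.42 ± 0.75 differed by 2.97 ± 1.05. The other KCNH6 probe set, also of low signal, gave −0.79 ± 0.73, and the mean over both gave 1.08; without the 3 arrays of raised hybridisation controls the first gave 1.88. KCNH1 (low signal), an eag channel, was at 2.59 and 2.02 in the arrays of the female animals and between −0.93 and 0.16 in all others. Among the modifier subunits, KCNS3 gave 0.31 ± 0.28 and KCNF1 −0.53 ± 0.30 between regions, opposite in sign within the same class as KCNS2.

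HCN3, a pacemaker channel that opens on hyperpolarisation and passes sodium as well as potassium, separated the SII groups. MmugDNA.34204.1.S1_at (middle signal) read −0.34, −0.29 and −0.57 in SII controls and 0.41, 0.65 and −0.04 in SII trained animals. In IPS it read 0.40, −0.10 and 0.48 in controls and 0.04, −0.21 and 0.12 in trained animals, and these overlapped. Training gave 0.73 ± 0.25 in SII and −0.27 ± 0.25 in IPS, a difference of −1.004 ± 0.35. With male animals only these were 0.61 in SII and −0.88 for the difference. The region difference was 0.15 ± 0.18. HCN3 had 1 probe set, so no other one could be set beside it.

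**Figure D4:**
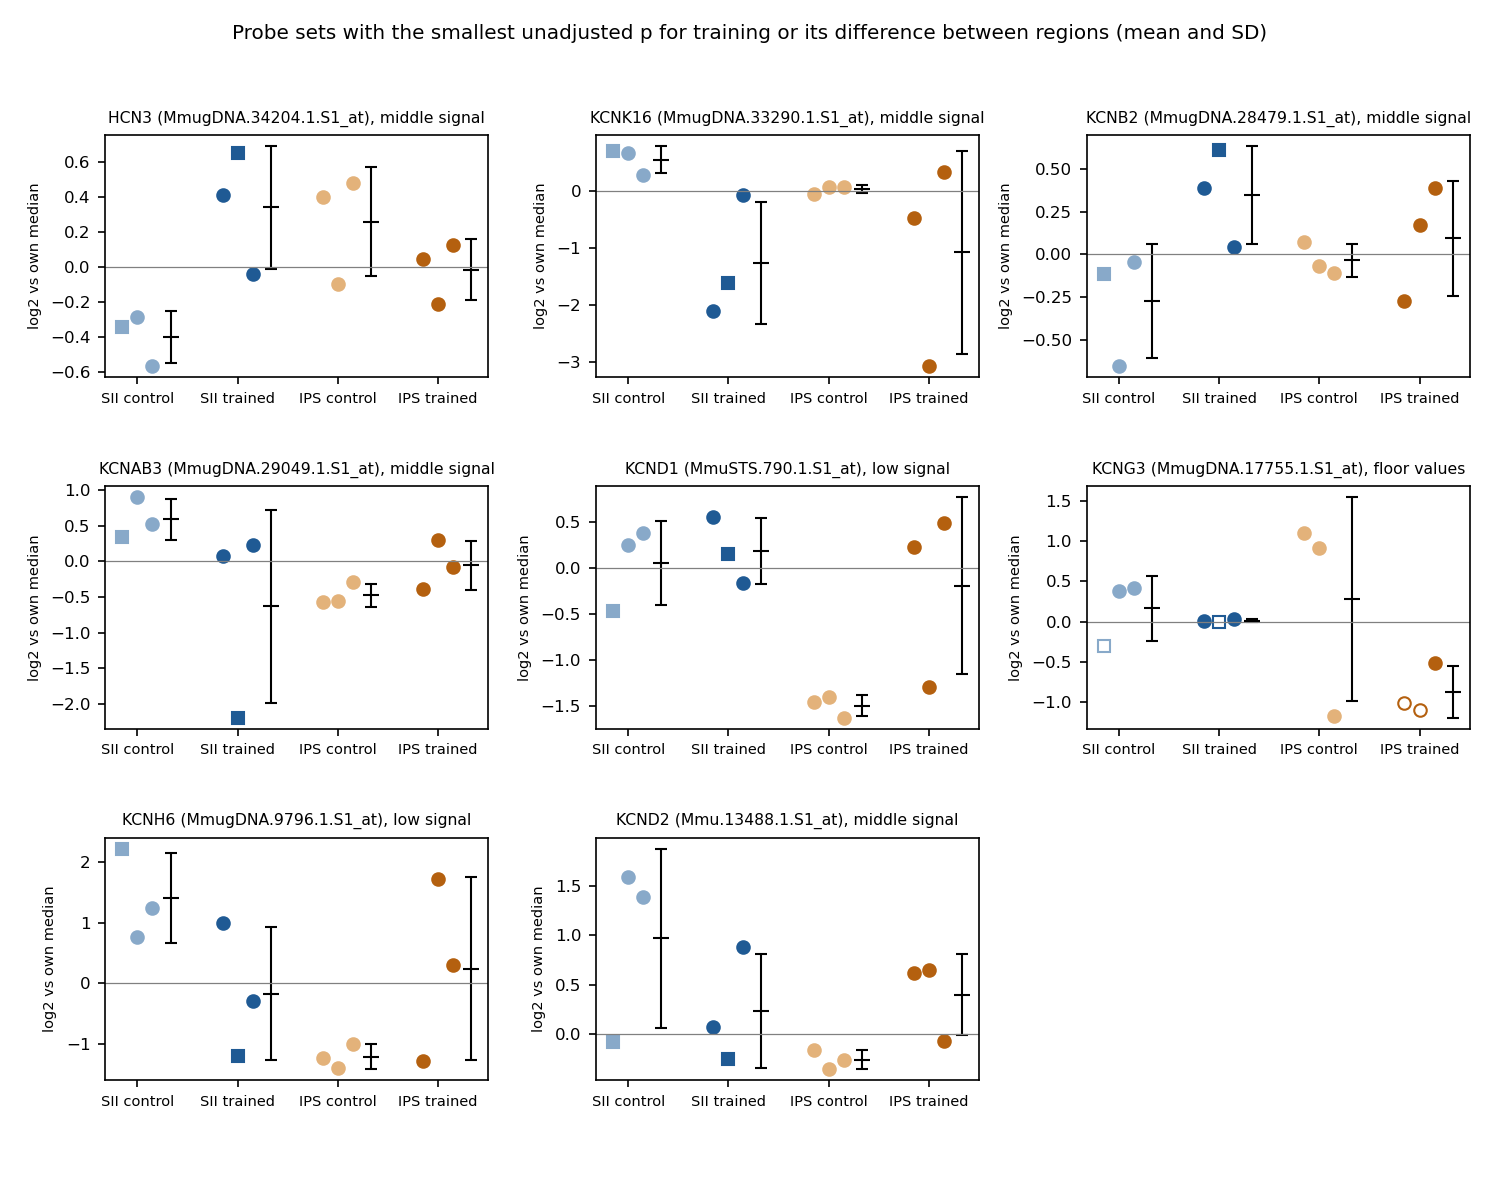
Log2 value on each array for the member probe sets with the smallest unadjusted p in the training comparisons, by group; the black bar is the group mean ± SD (n = 3), squares are the 2 arrays of female animals and open marks are values at the floor. HCN3 separates the groups in SII and not in IPS, and KCND1 separates them in IPS with 1 trained array close to the controls.

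Among inward rectifiers, the brightest probe set of KCNJ2 was higher in IPS and several others were lower. KCNJ2 and its relatives KCNJ4 and KCNJ12 pass current strongly inward and hold neurons near rest. The high-signal KCNJ2 probe set MmuSTS.1374.1.S1_at read −0.04, −0.01 and −0.15 in SII controls, −0.02, −0.19 and −0.06 in SII trained animals, 0.14, 0.23 and 0.01 in IPS controls and 0.33, 0.27 and 0.08 in IPS trained animals. All IPS arrays lay above all SII arrays, by a small margin between −0.01 and 0.01, and IPS was higher in 4 of 4 animals. The difference was 0.25 ± 0.13 (limma adjusted p = 0.566). The low-signal KCNJ2 probe set gave −1.001 ± 0.59, with IPS control 3 at −2.68 and IPS trained 3 at −2.57. KCNJ4 gave −0.29 ± 0.18. Both KCNJ12 probe sets were lower in IPS, by −0.61 ± 0.25 for MmugDNA.19057.1.S1_at (limma adjusted p = 0.509), the widest-ranging of the family's middle- and high-signal probe sets, and by −0.29 ± 0.18 for the high-signal one, which was lower in 4 of 4 animals.

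Of the astrocyte channels, KCNJ10 takes up potassium and KCNJ16 joins it in mixed channels. The high-signal KCNJ10 probe set gave 0.10 ± 0.16 between regions, and −0.23 ± 0.23 and 0.28 ± 0.23 for training in SII and IPS. The middle-signal one gave −0.21 ± 0.17 between regions and was lower in 4 of 4 animals, and the probe sets correlated at r = 0.04. KCNJ16 gave −1.58 ± 0.52 between regions (limma adjusted p = 0.471), but 4 of its 12 values were at the floor, so the size is not measured. With male animals only it gave −1.17. The astrocyte marker list, with 5 of 7 genes measured, had a region median of −0.10 with 1 higher and 4 lower.

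G protein-gated channels mediate slow inhibition. Of their genes, KCNJ6 gave 0.14 ± 0.21 for training in SII, 0.09 ± 0.21 in IPS and 0.07 ± 0.15 between regions. KCNJ9 gave −0.36 ± 0.27, 0.12 ± 0.27 and −0.11 ± 0.19. The 3 probe sets of KCNJ5 were of low signal or at the floor, and MmugDNA.43523.1.S1_at averaged 0.50 ± 0.25 higher in trained animals over the regions. KCNJ8, the ATP-sensitive channel of vessel wall cells, gave 0.19 ± 0.36 in SII, −0.15 ± 0.36 in IPS and −0.04 ± 0.25 between regions. KCNJ13, a channel of the choroid plexus, gave 0.18 ± 0.22 in SII and 0.01 ± 0.22 in IPS at its middle-signal probe set. The list of choroid plexus and ependymal markers had 4 of 6 genes measured, with 4 higher in trained animals in SII (median 0.54) and 1 higher in IPS (median −0.38); its part in the KCNJ13 values was not tested.

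KCNK13 had the largest region difference among probe sets free of the floor. It encodes a two-pore channel that in the brain is known from microglia, where it sets the resting potential and surveillance movements. MmuSTS.1405.1.S1_at (middle signal) read 0.23, 0.80 and 2.30 in SII controls and 0.01, 2.05 and 0.70 in SII trained animals, against −0.68, −0.14 and −0.91 in IPS controls and −0.92, −0.01 and −0.54 in IPS trained animals. The regions did not overlap, the SII arrays were far more spread (SD 0.95 against 0.39), and IPS was lower in 4 of 4 animals. The difference was −1.55 ± 0.42 (limma adjusted p = 0.421). With male animals only it was −1.49. Training gave −0.18 ± 0.60 in SII and 0.12 ± 0.60 in IPS. Of 8 microglial marker genes, all measured, 7 had a lower mean in IPS (median −0.40), against 7522 of 14132 genes in all (median −0.02). 3 of the 8 were lower at an unadjusted limma p under 0.05, against 6.38% of all genes, and 0 passed 5%. Among the 7 were the complement gene C1QB at −0.70, the growth factor receptor CSF1R at −0.58 and AIF1 at −0.45. The mean of the list ranged from −0.20 to 0.32 in SII arrays and from −0.70 to 0.16 in IPS arrays, and its part in the KCNK13 difference was not tested.

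The other two-pore probe sets free of the floor had smaller region differences. KCNK17, an alkaline-activated leak channel, was higher in IPS in 4 of 4 animals and by 0.37 ± 0.15 (limma adjusted p = 0.507), with SII values between −0.31 and 0.00 and IPS values between −0.06 and 0.56. The stretch-sensitive channels gave −0.24 ± 0.22 for KCNK2 and −0.29 ± 0.23 for KCNK10, and the third, KCNK4, gave −1.42 ± 0.60 (limma adjusted p = 0.516) with 2 values at the floor. KCNK1 gave 0.10 ± 0.22 and 0.21 ± 0.21 at its probe sets, which correlated at r = 0.83. The acid-sensitive KCNK3 gave −0.10 ± 0.18.

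In SII, 13 of 14 two-pore probe sets had a lower mean in trained animals, with a median of −0.18; over all probe sets 43.6% were lower. In IPS it was 8 of 14 (median −0.09, against 48.3% of all lower). The only one at an unadjusted p under 0.05 in SII was KCNK16, an alkaline-activated channel known from pancreatic islets. MmugDNA.33290.1.S1_at (middle signal) read 0.70, 0.66 and 0.27 in SII controls and −2.10, −1.62 and −0.07 in SII trained animals, and −0.06, 0.06 and 0.07 in IPS controls against −0.48, −3.07 and 0.33 in IPS trained animals. The control arrays were close together in both regions, and 3 of 6 trained arrays were lower than −1.5. The change was −1.84 ± 0.77 in SII, −1.10 ± 0.77 in IPS and −1.47 ± 0.55 on average. The average was −0.96 without IPS trained 2. The other SII changes of the family included −0.05 ± 0.33 for KCNK10, −0.11 ± 0.26 for KCNK3, −0.17 ± 0.32 for KCNK2, and −0.16 ± 0.31 and −0.01 ± 0.30 for KCNK1.

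None of the calcium- or sodium-activated genes reached an unadjusted p under 0.05 in any comparison. KCNMA1, the large-conductance channel that ends calcium spikes, had 3 probe sets that gave −0.54 ± 0.50, 0.28 ± 0.37 and −0.67 ± 0.76 for training in SII and 0.27 ± 0.50, −0.03 ± 0.37 and 0.95 ± 0.76 in IPS. Between regions they gave −0.37 ± 0.35, 0.20 ± 0.25 and −0.58 ± 0.53. The low-signal one was at 2.08, 2.03 and 2.03 in SII control 1, SII trained 2 and IPS trained 2.

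The small-conductance genes KCNN1 to KCNN3 contribute to the medium afterhyperpolarisation. In SII they gave training changes of 0.07 ± 0.34, 0.30 ± 0.22 and 0.40 ± 0.36, and in IPS 0.29 ± 0.34, −0.05 ± 0.22 and −0.18 ± 0.36. KCNN2 was tight in IPS, between −0.03 and 0.17, and between −0.67 and 0.06 in SII, for a region difference of 0.26 ± 0.15. KCNN4, of microglia and blood cells, had 4 values at the floor. KCNT1, the sodium-activated channel, gave 0.48 ± 0.32 in SII and 0.13 ± 0.32 in IPS, and was higher in IPS in 4 of 4 animals although its mean difference was only 0.07 ± 0.22.

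Among accessory subunits, 6 of 7 probe sets of the Kv channel-interacting proteins, the calcium-binding partners of Kv4, were lower in IPS (median −0.53). Over all probe sets 50.8% were lower. KCNIP2 gave −0.67 ± 0.25 at MmugDNA.9610.1.S1_s_at (limma adjusted p = 0.499), where IPS was lower in 4 of 4 animals, and −0.74 ± 0.35 at its middle-signal probe set. With male animals only these were −0.67 and −0.30. At the first of these the SII arrays read −0.43, 0.18 and 0.48 in controls and 0.07, 0.98 and 0.44 in trained animals, and the IPS arrays −0.64, −0.05 and −0.06 in controls and 0.05, −0.85 and −0.74 in trained animals. The regions overlapped only through SII control 1. KCNIP1 gave −0.53 ± 0.22 (limma adjusted p = 0.514). KCNIP3 reached 2.60 in SII trained 2 and 1.24 in SII control 1 at MmugDNA.23495.1.S1_at. Between regions this probe set gave −0.45 ± 0.55, and from −0.76 to 0.08 as each array was left out. The second middle-signal KCNIP3 probe set followed that one at r = 0.91. KCNIP4 gave 0.12 ± 0.38.

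The beta subunits KCNAB, which bind Kv1 channels inside the cell, had 6 of 7 probe sets lower in trained than in control animals in SII (median −0.37) and 5 of 7 in IPS (median −0.07). Over all probe sets 43.6% were lower in SII and 48.3% in IPS. KCNAB1 at its high-signal probe set MmugDNA.14710.1.S1_at read 0.01, −0.12 and 0.04 in SII controls and −0.26, −0.25 and −0.18 in SII trained animals. These did not overlap but differed by only −0.20 ± 0.24. In IPS the values of −0.01, 0.36 and 0.22 in controls and −0.23, 0.61 and 0.01 in trained animals overlapped. KCNAB3 gave −1.22 ± 0.55 in SII, with controls at 0.34, 0.90 and 0.53 and trained animals at 0.08, −2.20 and 0.23, so most of it came from SII trained 2, without which it was −0.44. The 4 probe sets of KCNAB2 gave −0.60 ± 0.70, −0.16 ± 0.27, −0.99 ± 0.60 and 0.31 ± 0.25, and that of −0.99 had SII trained 1 alone at −2.24.

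KCNMB4, the neuronal beta subunit of KCNMA1, had 4 probe sets with region differences of −0.48 ± 0.21 (limma adjusted p = 0.535), −0.17 ± 0.21, 0.03 ± 0.22 and −0.00 ± 0.19. The first was −0.29 with male animals only and −0.15 without the 3 arrays of raised hybridisation controls. The high-signal probe set was the one at 0.03. KCNE1, a single-pass partner of KCNQ1, gave −0.78 ± 0.30 between regions at a low-signal probe set (limma adjusted p = 0.505) and −0.52 ± 0.27 at a second with 4 values at the floor. KCNE3, at the floor in 5 arrays, gave −0.49 ± 0.55 for training in SII and 1.10 ± 0.55 in IPS.

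How far probe sets of the same gene moved together limits what each gene's value means. In 21 pairs of middle or high signal from 12 genes, the correlation over the 12 arrays had a median of r = 0.40, with 8 above 0.5 and 4 below 0. In the 29 pairs with a low or floor member the median was 0.16. These correlations are descriptive, and the probe sets of a pair share arrays. Probe sets whose name ends in _s_at can by the maker's convention match more than 1 transcript.

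Genes that work beside potassium channels were taken as a separate list of 44, of which 22 were measured. For training, 0 of 22 had an unadjusted limma p under 0.05 in SII and 0 of 22 in IPS, against 3.49% and 2.87% of all 14132 genes. Between regions 12 were higher and 10 lower in IPS, and 4 of the lower ones had an unadjusted limma p under 0.05, against 6.38% of all genes. These were CNTNAP2 at −0.39 and DLG2 at −0.38, which cluster Kv1 channels along axons and at synapses, and the sodium channel subunits SCN2A at −0.42 and SCN3B at −0.75. None passed 5% after adjustment.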

How the data were processed

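RNA of 12 tissue samples was hybridised to 1 array each. The labels give group, sex, age and animal. The authors deposited log2 values, per the file's range, with each probe set centred on its median over the arrays (largest deviation 2.38e-07), which removes levels. The submitters' processing notes name MAS5 and no version. Log base and scaling between arrays are not given in the sources used here. The signal classes (high at least 256, middle at least 16, in at least 11 of 12 arrays) and the floor (9898 probe sets) were inferred from the stored numbers.

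Of 52865 probe sets, 99 controls were left out. limma 3.58.1 (R 4.3.3, statmod 1.5.0) fitted 4 group means with arrays of the same animal correlated (0.0474), 8 residual and 2.22 prior degrees of freedom, 2-sided tests and Benjamini-Hochberg adjustment over 52766 probe sets. The fit was tested on simulated data. The 5 comparisons were training in SII, in IPS, their difference and average, and region. An exact permutation test of 3 against 3 arrays reaches p = 0.1 at best.

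Across regions, trained arrays 1 came from the same animal, as did trained arrays 3, and other same-numbered arrays came from different animals. The correlation of same-numbered arrays was −0.20 to 0.06. Named were textbook channels, the members with the smallest p per comparison (10, or 6 for difference and average) and the widest-ranging gene of each family. Members and lists were chosen with earlier results of these data known. Genes outside this rule were chosen after their values were seen.  Sequences and genome positions were not used here.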

Additional observations from a re-analysis of the deposited data

How the results depend on the processing

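No member passed 5% under any of the 24 alternatives (25 for training within a region), and the share of members lower in IPS stayed between 58.4% (male animals only) and 68.1%. Over all probe sets or genes that share was between 44.1% and 53.9%. Counts of members at an unadjusted limma p under 0.05 moved more. Each is followed by the count over all 52766 probe sets in the same setting, marked all. For training in SII (4, all 2043) they were 2 with quantile normalization (all 1799) and 2 with males only (all 2232). They were also 2 without the 3 arrays of raised hybridisation controls (all 2608). For IPS (1, all 1726) they were 3 with array weights (all 2633), 6 without those 3 arrays (all 3831) and 0 with middle and high signals only (all 508 of 25346). They were 2 each with sex as a covariate (all 2053), males only (all 2132) and a common floor (all 1656). They were also 2 with the mean over the probe sets of a gene (all 406 of 14132 genes) and with only the arrays of the comparison (all 2252). For the difference (2, all 1944) they were 4 with quantile normalization (all 2127), 6 with array weights (all 2862) and 6 with sex as a covariate (all 2320). They were 5 with males only (all 2270) and 10 without those 3 arrays (all 4561). For the average (2, all 1836) they were 1 each with median centring (all 1880), the replicate block (all 2261), and middle and high signals only (all 522 of 25346). Between regions (15, all 4888) the replicate block gave 8 (all 3695). Replicate numbers match animals across regions only for trained arrays 1 and 3. For the average, 47.8% of members lay below 0, against 44.3% of all probe sets. The share was 54.0% (against 51.3%) with quantile normalization, 53.1% (against 48.9%) with median centring and 51.3% (against 45%) with males only. Over all probe sets, 0 passed 5%, but for SII 1 did with quantile normalization, 2 with array weights, 2 with sex, 2 with a common floor and 1 with middle and high signals only. For the difference 1 did without the 3 arrays, for the average 1 with middle and high signals only, and between regions 5 with quantile normalization, 2 with sex, 1 with a common floor and 3 with the gene mean. KCNH7 between regions turned to 0.0262 with the gene mean, since its probe sets disagree. For the other moved values the cause was not tested.

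Leaving out each array in turn gave 0 to 3 probe sets past 5% for SII, 0 to 2 for IPS, 0 to 2 for the difference, 0 to 3 for the average and 0 to 14 between regions. Members at an unadjusted p under 0.05 in limma ranged from 1 to 10, 1 to 4, 3 to 8, 1 to 4 and 7 to 20 in the same order. Over all 52766 probe sets these counts were 1920 to 3244, 1592 to 3038, 1655 to 4031, 1717 to 2184 and 3754 to 6616. The shares of members below 0 ranged from 49.6% to 58.4%, 36.3% to 50.4%, 38.1% to 49.6%, 40.7% to 57.5% and 60.2% to 68.1%. Over all probe sets these shares were 39.8% to 46.8%, 45.9% to 50.5%, 51.8% to 56.9%, 41.7% to 46.5% and 48.6% to 53.9%. Signal limits 50 of the 113 members, which were of low signal or at the floor. Low signal made up 32.7% of members (33.2% of all probe sets) and the floor 11.5% (18.8% of all).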

Other observations

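Several members known mainly from tissues other than cortex had low or floor signals, though the islet channel KCNK16 had middle signal. KCNJ1, the secretory channel of kidney tubules, gave 0.04 ± 0.27 between regions at its low-signal probe set. Training in IPS gave 0.91 to 2.08 at the floor probe set of KCNJ1 as each array was left out. KCNMB1, the smooth muscle beta subunit, gave −0.89 ± 0.59, with values from −2.08 to 1.70. KCNJ15, an inward rectifier of kidney, read −2.52 in SII trained 3 and between −0.43 and 0.66 elsewhere. KCNK18, a channel of sensory ganglia, had high values from −0.01 to 0.61 and low values from −2.21 to −1.02, with low values in 1 SII control, 2 SII trained and 2 IPS trained arrays. KCNV2, a modifier subunit of photoreceptors, gave training changes of −0.84 ± 0.56 in SII and 0.83 ± 0.56 in IPS, a difference of 1.67 ± 0.77. These genes were chosen after their values were seen, except KCNK16, KCNK18, KCNV2 and the floor probe set of KCNJ1.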
